A study of Sus scrofa with 32 samples.

Results

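The subject here is the spread between pigs of the same breed group, measured by RNA-seq of the longissimus dorsi, the loin muscle. Members were all 32 of the 32 libraries, 8 in each of 4 groups, and spread was compared for the 10819 of 17930 listed genes that averaged at least 1 CPM (reads of a gene scaled by library size), which held 99.85% of the reads. Spread is the standard deviation (SD) of log2 CPM over the 8 libraries of a group, so an SD of 1 means that pigs typically lay a factor of 2 from their group mean. Per the labels, the groups were DLDPL (Duroc x Landrace x Dapulian), LDPL (Landrace x Dapulian), DPL (Dapulian) and L (Landrace). All pigs were wild type, 6 months old and kept under like conditions of housing and feed, and each library is named below by its group and the number in its label. The labels give neither sex nor litter, and nothing beyond the labels states that the 8 libraries of a group came from 8 unrelated animals. The series compared breeds, and the spread within a breed is the error against which such comparisons are read.

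Loin muscle is mostly fast fibre with some slow fibre, and it also holds fat cells between the fibres, connective tissue, vessels, nerves and resident immune cells. Immediate early genes such as FOS and EGR1 answer within minutes to stress or contraction, and interferon-stimulated genes are switched on together by the signal that viruses trigger. In bulk tissue, more cells of a type and more RNA per cell cannot be told apart.

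Libraries held about 2.2e+07 to 3.0e+07 uniquely mapped reads, with group medians of 25395413.5 in DLDPL, 24443127 in LDPL, 26326738 in DPL and 26910826.5 in L. Reads from outside the mitochondrial genome were fewest in DPL 16 (13619265), DPL 21 (14721013) and DPL 23 (15782869). Counting noise was small beside the spread, with a median expected counting SD of 0.0875 log2 units and a median of 7.83% of the variance of a gene. Every pair of libraries in a group differed by more than counting noise, with chi-square values of at least 33.66 per degree of freedom. The share of reads from the mitochondrial genome was 14.8 to 29.7% in DLDPL, 15.8 to 30% in LDPL, 22.2 to 37.3% in DPL and 17.3 to 24.8% in L. Median coverage of long genes was 89.4 to 92.5% in DLDPL, 89.3 to 92.2% in LDPL, 86.4 to 92.2% in DPL and 90.3 to 92.8% in L.

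Dapulian pigs had the widest median spread of the 4 groups. The median within-group SD of log2 CPM was 0.30 in DLDPL, 0.30 in LDPL, 0.36 in DPL and 0.28 in L, and the biological coefficient of variation from the counts was 0.265, 0.259, 0.299 and 0.248 in the same groups. The SD was largest in DPL for 5010 genes (46.3%), in DLDPL for 2172 (20.1%), in LDPL for 1956 (18.1%) and in L for 1681 (15.5%). Between DPL and L the median log2 ratio of SDs was 0.37, and it was above 0 for 71.9% of genes. This held from weakly to strongly expressed genes, with median ratios of 0.30, 0.36, 0.39, 0.43 and 0.34 in 5 equal bins of rising mean level.

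Per library, the mean absolute deviation from the group mean averaged 0.275 ± 0.0293 in DLDPL, 0.272 ± 0.025 in LDPL, 0.318 ± 0.0416 in DPL and 0.253 ± 0.0494 in L (SD, n = 8 each). Its range was 0.229 to 0.316 in DLDPL, 0.224 to 0.306 in LDPL, 0.248 to 0.368 in DPL and 0.204 to 0.367 in L, so the groups overlapped. In L, replicate 2 alone reached 0.367, and in DPL replicates 16 and 23 stood highest. The difference was 0.0646 for DPL over L (two-sided exact permutation test, p = 0.0162, adjusted p = 0.0555 over 6 pairs), -0.0461 for LDPL over DPL (exact p = 0.0185, adjusted p = 0.0555) and -0.0432 for DLDPL over DPL (exact p = 0.0334, adjusted p = 0.0668). No pair passed after adjustment, and the other 3 pairs had adjusted p of 0.458 to 0.831. With the mean over genes replaced by the median over genes, the same 3 pairs passed. Without L replicate 2, the difference for DPL over L was 0.0842 (adjusted exact permutation p = 0.00187), and without DPL replicate 16 it was 0.0553 (adjusted exact permutation p = 0.213).

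**Figure D1:**
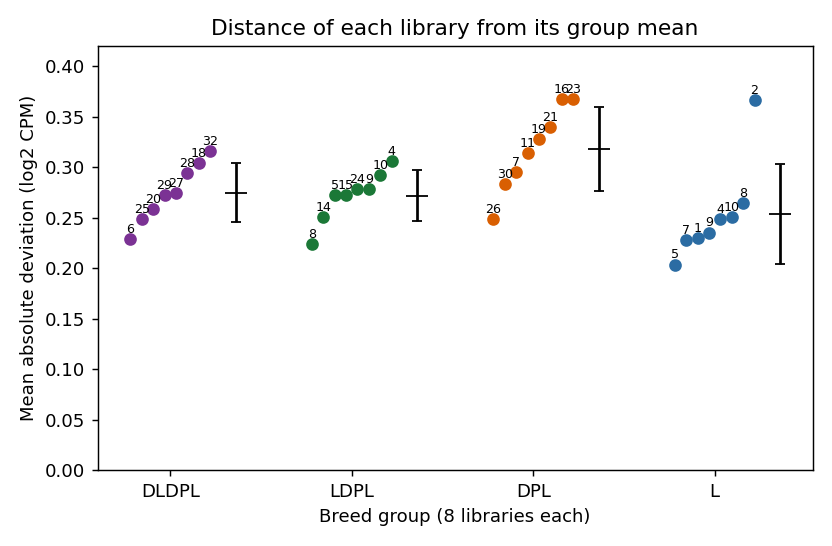
Mean absolute deviation of each library from its group mean (y axis, log2 CPM, over 10819 genes) in the 4 breed groups (x axis); numbers are label numbers, and the black bars give mean and SD of 8 libraries. DPL runs from 0.248 to 0.368, and L replicate 2 stands at 0.367 above the other L libraries.

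In DPL, libraries with lower coverage deviated more (r = -0.80 over 8 libraries), while r was -0.18 in DLDPL, -0.43 in LDPL and 0.34 in L. Over the 32 libraries with group means removed, r was -0.34 and rho -0.35 (permutation p = 0.0843 and 0.0725, adjusted p = 0.169 and 0.174 over 6 relations, r = -0.13 without the 2 most extreme libraries). The mitochondrial share had r of 0.09 and rho of 0.16 with the deviation (permutation p = 0.633 and 0.422, adjusted p = 0.697 and 0.632, r = 0.09 without the 2 most extreme libraries), and r of -0.23, 0.14, 0.58 and -0.46 within DLDPL, LDPL, DPL and L. Deeper libraries deviated less, with r = -0.48 and rho = -0.46 (permutation p = 0.00753 and 0.0174, adjusted p = 0.0452 and 0.105). That r was -0.38 without the 2 most extreme libraries, and -0.64, 0.11, -0.57 and -0.60 within DLDPL, LDPL, DPL and L. With mitochondrial share and coverage taken out of each gene, the median SD was 0.29 in DLDPL, 0.28 in LDPL, 0.32 in DPL and 0.27 in L, and the deviation difference for DPL over L fell to 0.0395 (adjusted exact permutation p = 0.522). Depth was not taken out. DPL 16, 21 and 23 had the fewest reads outside the mitochondrial genome and the largest deviations in DPL (0.367, 0.340 and 0.368). The part of this depth in the spread was not tested.

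Gene lists differed far more in spread than groups did, though the lists were not matched for expression level. Of the 10819 genes, the 10% with the largest pooled SD had values above 0.59, and the number of members of a gene list in that top group is given below. Interferon-stimulated genes had 16 of 20 measured members there, immediate early genes 18 of 21, macrophage markers 10 of 12, lymphocyte markers 4 of 4, slow fibre genes 6 of 9 and adipocyte markers 4 of 7. Nuclear genes of oxidative phosphorylation had 0 of 24, glycolysis and glycogen 0 of 22, endothelium 0 of 10, the mitochondrial genome 0 of 13 and ribosomal proteins 1 of 19. The 10 least variable genes with a symbol had SDs of 0.10 to 0.12 and included the adhesion and Wnt protein CTNNB1, the signalling adaptor GRB2 and the small GTPase RHOA. Among neutrophil and sex-linked genes listed, 0 could be tested.

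**Figure D2:**
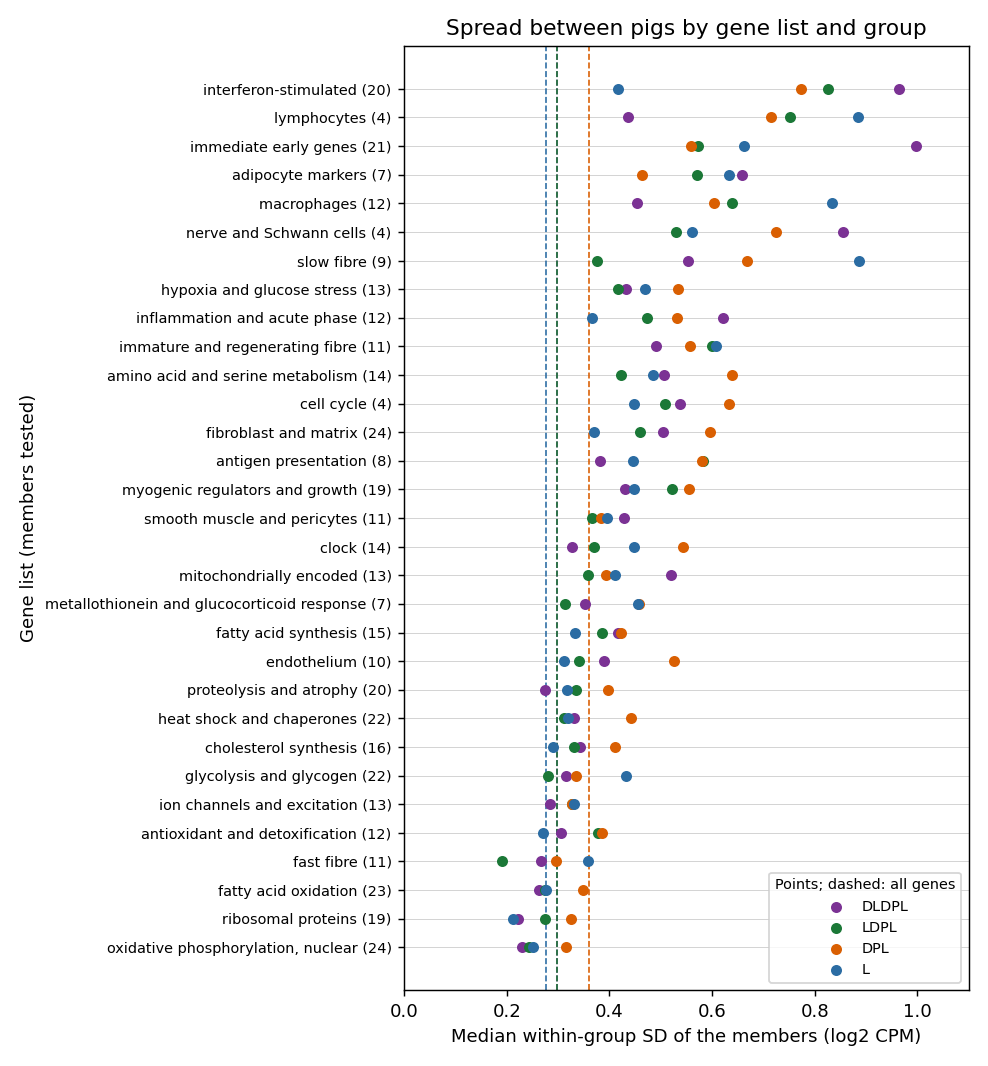
Median within-group SD of the measured members (x axis, log2 CPM) for 31 gene lists (y axis, members tested in brackets), 1 point per breed group; dashed lines mark the median of all genes in each group. Interferon-stimulated and immediate early genes lie near 1 in DLDPL, and oxidative phosphorylation lies below 0.32 in every group.

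Interferon-stimulated genes varied widely in DLDPL, LDPL and DPL and less in L. The median member SD was 0.97 in DLDPL, 0.83 in LDPL, 0.77 in DPL and 0.42 in L. RSAD2, an antiviral enzyme, had a lowest, median and highest CPM of 0.762, 1.74 and 59.7 in DLDPL, 0.369, 2.32 and 17.5 in LDPL, 0.597, 11.2 and 36.5 in DPL, and 1.34, 2.96 and 5.22 in L. The groups overlapped, with the high values in DLDPL 32, in LDPL 9 and in several DPL pigs. MX1, a GTPase that blocks viruses, had 4.17, 5.29 and 110 CPM in DLDPL, 2.09, 7.11 and 37.7 in LDPL, 2.84, 21.7 and 102 in DPL, and 4.05, 6.07 and 18.7 in L. OAS2, a sensor of viral RNA, had 4.61, 7.39 and 152 CPM in DLDPL, 2.01, 12 and 70.6 in LDPL, 11.1, 26.2 and 38.9 in DPL, and 9.5, 18.6 and 34.6 in L. MX1 and OAS2 ranked the same DLDPL pig first, as did all 20 members. Without DLDPL replicate 32 the median member SD of DLDPL was 0.37 and 0 of 20 members, against 12 with it, were most spread in DLDPL. Of all genes, 18.8% were most spread in DLDPL without it and 20.1% with it. In DPL, 7 of 20 members had their largest SD, beside 46.3% of all genes, and 15 of 20 once DLDPL 32 was left out, beside 47% of all genes then.

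With all libraries, immediate early genes were most spread in DLDPL, where 17 of 21 members had their largest SD, beside 20.1% of all genes. FOS, a subunit of the AP-1 factor, had 47.9, 378 and 816 CPM (lowest, median, highest) in DLDPL, 228, 560 and 841 in LDPL, 395, 958 and 1330 in DPL, and 2.17, 53.1 and 86.2 in L. EGR1, a zinc finger factor, had 8.24, 112 and 264 CPM in DLDPL, 41.1, 84.9 and 98.8 in LDPL, 87.6, 175 and 620 in DPL, and 6.97, 16.3 and 71.4 in L. For FOS, every L library was below every LDPL and DPL library, and only DLDPL replicate 18 fell into the range of L. FOS itself was widest in L, with an SD of 1.88 against 1.23 in DLDPL. The nuclear receptor NR4A3 had 16.2, 242 and 371 CPM in DLDPL, 66.3, 100 and 304 in LDPL, 37.1, 146 and 308 in DPL, and 0.231, 1.08 and 1.58 in L. DLDPL 18 had the lowest level of its group for 20 of 21 immediate early genes and for 20 of 22 heat shock and chaperone genes. Without DLDPL replicate 18 the median member SD of DLDPL was 0.57 in place of 0.997, and the other groups stood at 0.57 (LDPL), 0.56 (DPL) and 0.66 (L). Then 4 of 21 members were most spread in DLDPL and 12 in L, beside 18.1% and 15.8% of all genes.

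Immune cell markers were most spread in L, where 12 of 12 macrophage markers had their largest SD, beside 15.5% of all genes. CD68, a lysosomal protein of macrophages, had 2.93, 4.76 and 6.08 CPM (lowest, median, highest) in DLDPL, 2.22, 5.11 and 9.98 in LDPL, 2.28, 4.37 and 12.8 in DPL, and 0.886, 2.49 and 17.9 in L. The scavenger receptor MSR1 had 0.493, 0.886 and 1.77 CPM in DLDPL, 0.328, 1.04 and 2.65 in LDPL, 0.673, 0.963 and 3.79 in DPL, and 0.107, 0.601 and 3.77 in L. L replicate 2 was the highest L library for all 12 macrophage and all 4 lymphocyte markers. Without L replicate 2 the median SD of the macrophage markers was 0.45 in DLDPL, 0.64 in LDPL, 0.60 in DPL and 0.50 in L. Then 1 of 12 was most spread in L, beside 10.1% of all genes. DPL 16 was in turn the highest DPL library for 12 of 12, and LDPL 24 the highest LDPL library for 10 of 12. SPP1, the secreted protein osteopontin, peaked at 90.9 CPM in LDPL 4 and, again, at 53.8 CPM in DPL 16, while the medians were 1.02 in LDPL and 3.29 in DPL.

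**Figure D3:**
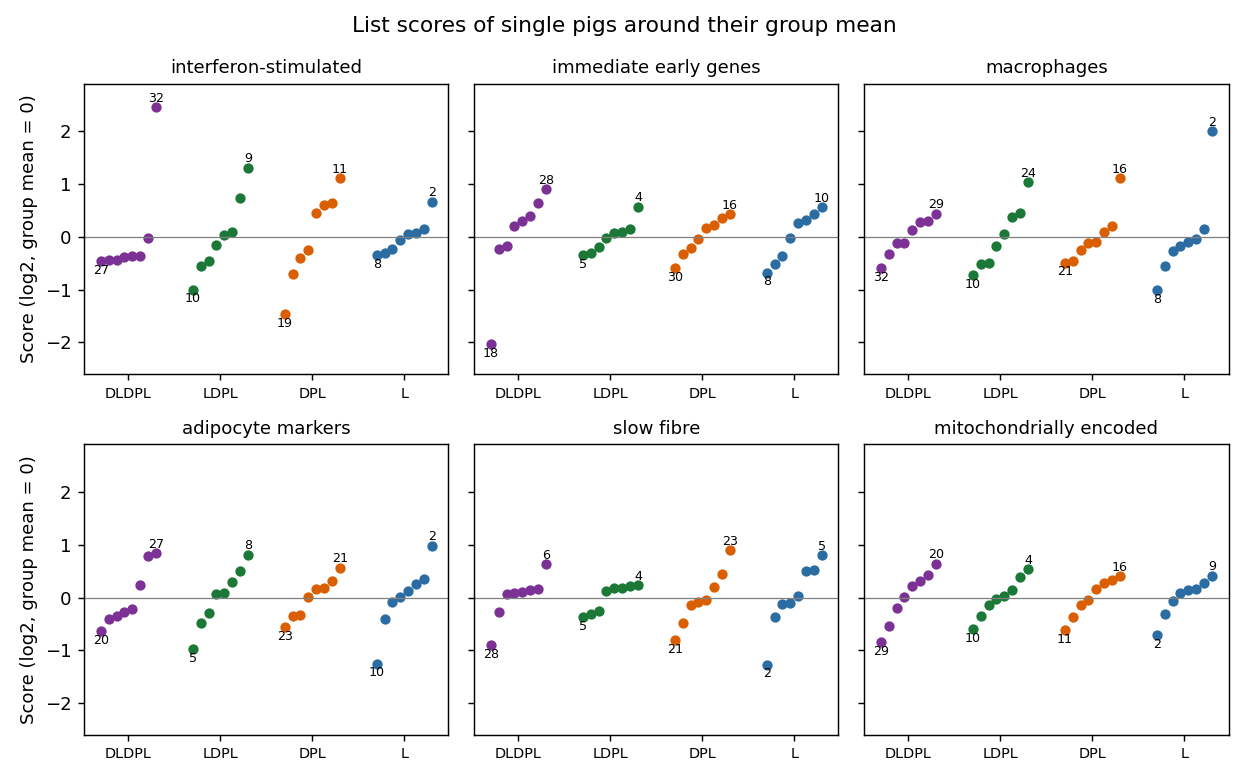
Score of 6 gene lists in each library (y axis: mean log2 CPM of the members after the group mean is removed) by breed group (x axis); numbers mark the lowest and the highest library of each group. DLDPL 32 lies at 2.46 for interferon-stimulated genes, DLDPL 18 at -2.03 for immediate early genes and L 2 at 2 for macrophage markers.

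Contractile genes showed L replicate 2 again. MYL3, a light chain of slow myosin, had 248, 475 and 859 CPM (lowest, median, highest) in DLDPL, 335, 435 and 665 in LDPL, 314, 738 and 1280 in DPL, and 47.1, 423 and 650 in L. The lowest L value belonged to L 2, which was the lowest L library for 8 of 9 slow fibre genes, 10 of 11 fast fibre genes and 16 of 22 genes of glycolysis and glycogen. MYH3, the embryonic myosin, had 2.8, 5.46 and 14.7 CPM in DLDPL, 2.02, 4.44 and 16.4 in LDPL, 1.03, 5.96 and 16.7 in DPL, and 3.47, 9 and 220 in L. ACTC1, the actin of heart and of immature muscle, had 6.21, 12.8 and 36.3 CPM in DLDPL, 6.68, 11.3 and 40.2 in LDPL, 4.56, 34 and 131 in DPL, and 8.93, 19.8 and 281 in L. Both peaks in L were L 2, but MYH3 also reached 60.3 CPM in L 7 and 41.3 CPM in L 1, and ACTC1 ranged widely among DPL pigs. The median SD of slow fibre genes was 0.55 in DLDPL, 0.38 in LDPL, 0.67 in DPL and 0.89 in L, and L stood at 0.56 without replicate 2. LDPL had the narrowest median for both slow and fast fibre genes (0.19 for fast fibre genes, against 0.27 in DLDPL, 0.30 in DPL and 0.36 in L), although the fast fibre median of L was 0.18 without replicate 2. PVALB, a calcium buffer of fast fibres, was the exception in LDPL, with 5.98, 17.1 and 108 CPM, a wider span than the 13.5, 23.6 and 34.2 CPM of DLDPL.

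Fat genes varied in every group, with score SDs of adipocyte markers of 0.56 in DLDPL, 0.57 in LDPL, 0.38 in DPL and 0.64 in L. PLIN1, the coat protein of fat droplets in adipocytes, had 3.16, 7.02 and 43.6 CPM (lowest, median, highest) in DLDPL, 0.438, 3.33 and 9.7 in LDPL, 2.27, 10.4 and 20.8 in DPL, and 0.164, 4.15 and 22.5 in L. FASN, fatty acid synthase, had 6.98, 11.9 and 197 CPM in DLDPL, 5.01, 9.92 and 18 in LDPL, 2.21, 10.2 and 20.6 in DPL, and 3.58, 6.83 and 20.9 in L. SCD, the enzyme that makes oleate from stearate, had 8.82, 24.9 and 444 CPM in DLDPL, 5.01, 15.8 and 50 in LDPL, 3.68, 8.1 and 26.1 in DPL, and 2.5, 4.43 and 15.8 in L. The groups overlapped for all 3 genes, and the DLDPL peaks were DLDPL 29 for FASN and SCD and DLDPL 27, closely followed by 29, for PLIN1. The lists did not follow as a whole. DLDPL 29 was the highest DLDPL library for 6 of 15 fatty acid synthesis genes and 2 of 7 adipocyte markers, and DLDPL 27 for 2 of 7 adipocyte markers. Of the 15 synthesis genes, 3 were among the 10% of genes with the largest pooled SD. ACACA, acetyl-CoA carboxylase, which feeds FASN, had an SD of 0.90 in DLDPL, 0.24 in LDPL, 0.34 in DPL and 0.32 in L, and its spread differed among the groups (limma F test on deviations, adjusted p = 0.0499). No single pair of groups passed for ACACA (limma adjusted p of at least 0.134). It was singled out after its values were seen, since its mean CPM lay under the minimum for named genes.

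Endothelial genes were most spread in DPL with all libraries, and matrix genes only with DPL 16 included. Of 24 matrix genes 15, and of 10 endothelial genes 8, had their largest SD there, beside 46.3% of all genes. Collagen III gene COL3A1, shown for its neighbour pair below and chosen after its values were seen, had 382, 641 and 1170 CPM (lowest, median, highest) in DLDPL, 197, 530 and 758 in LDPL, 52.5, 220 and 422 in DPL, and 698, 1020 and 1400 in L. DPL 19 gave the lowest COL3A1 and was lowest in DPL for 19 of 24 matrix genes, while DPL 16 was highest for 21 of 24. Without DPL replicate 16, 7 of 24 matrix genes were widest in DPL and 9 in LDPL, beside 42.4% and 19.2% of all genes then. The median SD of the matrix genes was 0.50 in DLDPL, 0.46 in LDPL, 0.48 in DPL and 0.37 in L. Of the endothelial genes, 7 of 10 were widest in DPL without DPL replicate 16 and also without DPL replicate 23, beside 42.4% and 41.5% of all genes. The DPL libraries at the ends of the endothelial score were DPL 21 (0.694) and DPL 7 (-0.633). Neither was left out for such a count, so its dependence on them was not tested. Ribosomal protein genes (16 of 19) and nuclear oxidative phosphorylation genes (16 of 24) were also most often widest in DPL with all libraries. DPL 23, the library of lowest coverage, was highest in DPL for 14 of those 19 and 15 of those 24 genes, and the part of coverage in this was not tested. Without DPL replicate 23, 6 of 19 ribosomal protein genes (median SD 0.27 in DPL and 0.27 in LDPL) and 9 of 24 oxidative phosphorylation genes (median SD 0.25 in DPL and 0.25 in L) were widest in DPL. Of all genes, 41.5% were widest in DPL in that setting. The mitochondrial genome was most spread in DLDPL, for 11 of its 13 genes, beside 20.1% of all genes. DLDPL 20 was highest for 11 and DLDPL 29 lowest for 12. These 13 genes moved together, with a mean r of 0.82 among them, so they do not count as separate observations. The mitochondrial share of reads is made up of the reads of these same 13 genes. The r of 0.94 between their score and that share thus follows largely from the shared reads and tests no relation.

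Blood genes are the shortest list, with 2 measured members, and both were most spread in L. HBB, a globin whose reads may be split with near-identical globin genes, had 26.8, 97.6 and 509 CPM (lowest, median, highest) in DLDPL, 39.1, 87.9 and 285 in LDPL, 30.9, 74.3 and 137 in DPL, and 5.41, 74.7 and 161 in L. The lowest L library was L 2, and the SD in L was 1.49 with it and 0.55 without it. Without L replicate 2, both blood genes were most spread in DLDPL.

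Some of the most variable genes were present in part of the pigs and nearly absent in the rest. SMDT1, a subunit of the mitochondrial calcium uniporter, was the named gene of largest pooled SD (3.63). It stood under 2 CPM in 15 libraries, at most 1.04, and at 3.59 CPM or more in the other 17. The low libraries numbered 4 in DLDPL, 4 in LDPL, 4 in DPL and 3 in L, and 6 of them had 0 reads, where 3 reads would be 0.101 to 0.138 CPM. High DLDPL, LDPL and DPL libraries had 13.5 to 48.1 CPM, and high L libraries 3.59 to 6.23 CPM. NDUFA6, a subunit of complex I that lies next to SMDT1 in the Sscrofa11.1 annotation, was under 2 CPM in 3 DLDPL, 4 LDPL, 3 DPL and 0 L libraries. The 2 genes went together, with both low in 10 libraries and both high in 17, while 5 had low SMDT1 with higher NDUFA6. Over 32 libraries with group means removed, r was 0.89 and rho 0.90 (permutation p = 1e-05, the smallest possible, adjusted p = 0.00169 over 2030 neighbour pairs).

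COQ10A, a coenzyme Q-binding protein of mitochondria, was graded instead, with 22.9, 26.3 and 58.2 CPM (lowest, median, highest) in DLDPL, 0.523, 6.67 and 50.1 in LDPL, 3.99, 17.8 and 38.7 in DPL, and 30.9, 40.1 and 46.7 in L. Values under 20 CPM occurred in LDPL and DPL and in neither of the other groups, and the spread differed among the 4 groups (limma F test on deviations, adjusted p = 0.0173). No single pair of groups passed for COQ10A (limma adjusted p of at least 0.0615). CA14, a membrane carbonic anhydrase, spanned 2.24 to 126 CPM in DLDPL, 1.45 to 82.1 in LDPL and 2.73 to 106 in DPL, but 36.6 to 146 in L. CIT, citron kinase of cell division, spanned 0.471 to 19.3 CPM in DLDPL, 0.171 to 4.18 in LDPL, 0.142 to 9.37 in DPL and 3.09 to 15.2 in L. ADAMTS8, a secreted metalloprotease, spanned 0.796 to 35, 0.513 to 66.6, 0.0709 to 14.8 and 0.793 to 103 CPM in DLDPL, LDPL, DPL and L.

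The gene of largest spread among all tested had no symbol. ENSSSCG00000026430 and 4 other unnamed genes were high in the same libraries, with r of 0.987 to 0.994. ENSSSCG00000026430 was above 10 CPM in 15 libraries, at 29.1 CPM or more, and at 1.64 CPM or less in 17, with 5 high libraries in DLDPL, 2 in LDPL, 3 in DPL and 5 in L. ENSSSCG00000029864 and ENSSSCG00000012179 passed 10 CPM in 4 L libraries in place of 5. What splits the pigs of a group in this way was not tested.

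Gene by gene, spread differed among the 4 groups for 19 of 10819 genes (0.176%; limma moderated F test on absolute deviations from the group mean, adjusted p under 0.05). Between DPL and L it was wider in DPL for 21 genes (0.194%) and narrower for 3 (0.0277%). For LDPL over DPL it was wider for 1 gene (0.00924%) and narrower for 12 (0.111%), and for DLDPL over DPL it was narrower for 3 (0.0277%). DLDPL over L and LDPL over L each had 1 gene, narrower (0.00924%). DLDPL over LDPL had 0 (0%), with 612 genes at an unadjusted p under 0.05. The pairs share libraries, so their calls are not independent, and only 35 genes, 21 of them with a symbol, were called by either test. Deviations from the group median in place of the mean gave 0 calls by limma in every comparison, with 468 genes at an unadjusted p under 0.05 among the 4 groups and 797, of them 737 wider in DPL, for DPL over L. The count for DPL over L was 5 without L replicate 4 and 75 without DPL replicate 26.

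Most of the called genes were wide in DPL. PAPOLG, a poly(A) polymerase, had 5.51, 7.01 and 7.83 CPM (lowest, median, highest) in DLDPL, 5.34, 6.58 and 7.95 in LDPL, 3.67, 7.74 and 10.3 in DPL, and 5.93, 6.3 and 6.86 in L. Its log2 SD ratio for DPL over L was 3.003 (limma adjusted p = 0.00246), which passed in each of 32 fits without 1 library, at adjusted p of at most 0.0134. PTCD2, which processes mitochondrial RNA, had a ratio of 2.61 for DPL over L (limma adjusted p = 0.00501) and likewise passed in each of the 32. POLL, a DNA repair polymerase, had a ratio of 2.80 (limma adjusted p = 0.00759), and an adjusted p in limma of 0.0529 without DPL replicate 7.

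XRCC6, the Ku70 subunit that binds broken DNA ends, had 20.7, 26.5 and 30.8 CPM (lowest, median, highest) in DLDPL, 22, 24.2 and 29.4 in LDPL, 9.82, 27.1 and 38.2 in DPL, and 22.3, 29.1 and 30.6 in L. The low DPL values were DPL 11 and DPL 21. Its log2 SD ratio was -2.12 for LDPL over DPL (limma adjusted p = 0.0376) and 1.995 for DPL over L (limma adjusted p = 0.031), and without DPL replicate 11 the adjusted p in limma was 0.202 and 0.187 for these calls. PBLD had 12.3, 21.1 and 28.2 CPM in DLDPL, 13.8, 16.4 and 18.4 in LDPL, 4.67, 18.3 and 30.2 in DPL, and 15.2, 17.9 and 21.4 in L. AGRN, agrin, which builds the neuromuscular junction, had an SD of 0.94 in DPL against 0.17 in L (limma adjusted p = 0.0309), with DPL 16 at 21.5 CPM, DPL 21 at 20.5 CPM and DPL 19 at 3.25 CPM, and its adjusted p in limma was 0.0648 without L replicate 7. CHERP, an RNA-binding protein tied to calcium release, was the gene wider in LDPL than in DPL (log2 SD ratio 2.22, limma adjusted p = 0.0376), with 3.21 to 9.18 CPM in LDPL against 6.97 to 8.83 CPM in DPL. Without LDPL replicate 14 its adjusted p in limma was 0.241.

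HDGFL2, a chromatin reader, and its neighbour UBXN6, a cofactor of the unfolding enzyme VCP, split the same way. HDGFL2 had 28.8, 31 and 35.3 CPM (lowest, median, highest) in DLDPL, 31.4, 36.5 and 42 in LDPL, 24.7, 31.9 and 53.8 in DPL, and 26.6, 40.8 and 48.3 in L. In DPL, pigs 19, 23 and 30 had 49 to 53.8 CPM and the other 5 at most 32.7 CPM. UBXN6 reached 49.1, 47.8 and 37.1 CPM in those 3 pigs and at most 28.6 CPM in the other 5. The log2 SD ratio of HDGFL2 was -2.31 for DLDPL over DPL (limma adjusted p = 0.0154) and -1.89 for LDPL over DPL (limma adjusted p = 0.0376), and that of UBXN6 was -1.98 for LDPL over DPL (limma adjusted p = 0.0473). Leaving out 1 library took the adjusted p in limma as high as 0.0807, 0.0926 and 0.145 for these 3 calls.

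ENSSSCG00000024996, which has no symbol, was called in L against each other group. It had 10.7 to 15 CPM in DLDPL, 10.1 to 25.9 in LDPL, 13.5 to 26.3 in DPL and 0.0375 to 29.6 in L, where 3 libraries were under 2 CPM. Its log2 SD ratio was -4.93 for DLDPL over L, -2.77 for LDPL over L and -3.12 for DPL over L (limma adjusted p = 7.92e-10, 1.55e-07 and 2.79e-08), and all 3 calls held in every fit without 1 library. Of the 24 genes called for DPL over L, 4 also differed in mean level by edgeR's quasi-likelihood test, beside 41.2% of all genes. The same test passed for 0 of 13 genes called for LDPL over DPL (3.51% of all genes), 0 of 3 for DLDPL over DPL (5.04%), and not for the gene called for DLDPL over L (24.9%) and LDPL over L (33%). The genes with a symbol among the 4 were PTCD2 (log2 fold change -0.87, SE 0.189, adjusted p = 0.000413) and NAP1L3, a nucleosome assembly protein named for this count alone (-1.02, SE 0.239, adjusted p = 0.000893).

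Functions covaried from pig to pig within groups. Of 435 pairs among 30 lists, 24 passed by both Pearson's r and Spearman's rho (permutation within groups, each adjusted over the 435 pairs), 16 positive and 8 negative, and 22 of them had the same sign in all 4 groups. Macrophage and lymphocyte markers went together (r = 0.86, rho = 0.74, adjusted permutation p = 0.00087 and 0.00544), with r of 0.78, 0.87, 0.69 and 0.95 within DLDPL, LDPL, DPL and L and 0.79 over 31 libraries without L replicate 2. Adipocyte markers went with fatty acid synthesis (r = 0.79, rho = 0.83, adjusted permutation p = 0.00087 and 0.00218), at 0.80 to 0.86 within each group. Immediate early genes went with inflammation and acute phase genes (r = 0.82, rho = 0.78, adjusted permutation p = 0.00087 and 0.00218), at 0.73 without DLDPL replicate 18. Fatty acid oxidation went with nuclear oxidative phosphorylation (r = 0.64, rho = 0.64, adjusted permutation p = 0.0058 and 0.0121), and both had r of 0.46 with the mitochondrial share of reads. Without the 2 libraries farthest out in the first list, these 4 values of r were 0.74, 0.78, 0.68 and 0.62.

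Fast fibre and glycolysis genes ran against immature fibre, matrix and fat genes. Fast fibre genes went with glycolysis and glycogen (r = 0.83, rho = 0.69, adjusted permutation p = 0.00087 and 0.00797), and both ran against immature fibre genes (r = -0.74 and -0.74, rho = -0.60 and -0.61, adjusted permutation p = 0.0131 and 0.0058 for r and 0.0182 and 0.0144 for rho). Much of the size rested on L 2: without L replicate 2 these 3 values of r were 0.68, -0.48 and -0.52. Adipocyte markers ran against both as well (r = -0.60 with fast fibre genes and -0.58 with glycolysis). Matrix genes ran against fast fibre genes (r = -0.52) and glycolysis (r = -0.59), and with immature fibre genes (r = 0.61), smooth muscle and pericytes (r = 0.66) and growth regulators (r = 0.74), all among the 24. With the first within-group component taken out, r reversed to 0.19 for matrix with fast fibre genes, was -0.07 with glycolysis and 0.15 with immature fibre genes, and 7 list pairs passed. Endothelium and smooth muscle went together (r = 0.73, rho = 0.65, adjusted permutation p = 0.00124 and 0.00994), at 0.71, 0.88, 0.76 and 0.70 within DLDPL, LDPL, DPL and L. Antigen presentation went with macrophages (r = 0.70) in 3 groups, at 0.96 in LDPL, 0.40 in DPL and 0.87 in L, but at -0.16 in DLDPL. Without L replicate 2, DPL replicate 16 and DPL replicate 23 together, 9 pairs passed, 8 of them among the 24, and without all 8 L libraries 3 passed.

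**Figure D4:**
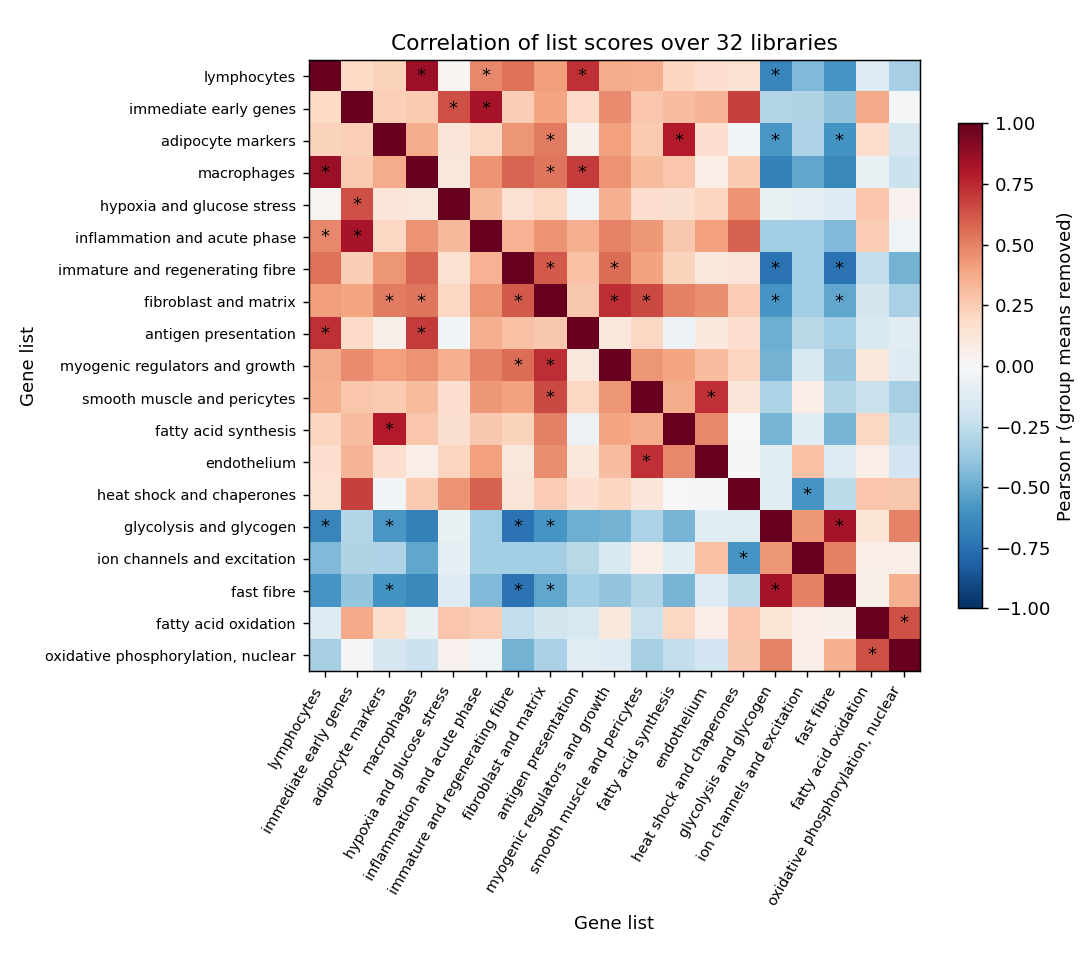
Pearson's r between list scores over 32 libraries with group means removed (colour; both axes list the 19 gene lists that take part in a called pair); stars mark the 24 called pairs. Macrophages with lymphocytes (0.86) and fast fibre with glycolysis (0.83) are the strongest positive pairs, and glycolysis and fast fibre run against immature fibre, matrix and fat.

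A single axis held 14.2% of the within-group variance, followed by 7.64%, 7.06% and 6.5%. Its negative end included SPP1, the aggrecanase ADAMTS4, complement gene C4A, FASN, CD68 and ACTC1, and its positive end SMDT1, ADAMTS8, NDUFA6, the phosphatase inhibitor PPP1R14C, HBB and the glycolytic regulator PFKFB3. L 2 (score -36.6) and DPL 16 (-35) lay at the negative end and DLDPL 32 (29.5) at the positive end. The axis score had r of 0.08 with the mitochondrial share, -0.15 with coverage and 0.38 with depth (rho 0.08, -0.13 and 0.35; adjusted permutation p of 0.697, 0.697 and 0.169 for r and 0.69, 0.632 and 0.174 for rho; r of -0.10, -0.06 and 0.26 without the 2 most extreme libraries). Within L, its r with depth was 0.78, and within DLDPL its r with the mitochondrial share was 0.64 and with coverage -0.69.

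Genes next to each other had a higher r, on average, than genes taken over the whole table. Over 2030 pairs of consecutive, non-overlapping genes of the Sscrofa11.1 annotation, r averaged 0.0992, against 0.00263 over all pairs of genes. By permutation, 99 pairs passed (4.88%), 89 of them positive. The pairs named here were chosen after their values were seen. RSAD2 and CMPK2, a nucleotide kinase of the interferon response, had the highest r (0.95, rho = 0.93), with 0.95, 0.96, 0.95 and 0.90 within DLDPL, LDPL, DPL and L. Collagens COL3A1 and COL5A2 followed (r = 0.90, rho = 0.90), then HDGFL2 and UBXN6 (r = 0.89, rho = 0.87) and NDUFA6 and SMDT1, the interferon-induced ligases HERC5 and HERC6 (r = 0.86, rho = 0.78) and the mitochondrial chaperones HSPD1 and HSPE1 (r = 0.79, rho = 0.71). For each of these 6 pairs the adjusted permutation p was 0.00169, and r without the 2 most extreme libraries was 0.91, 0.87, 0.90, 0.89, 0.78 and 0.70 in the order given. The kit did not mark the strand, so reads that run from one gene into its neighbour could add to such values, which was not tested.

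**Figure D5:**
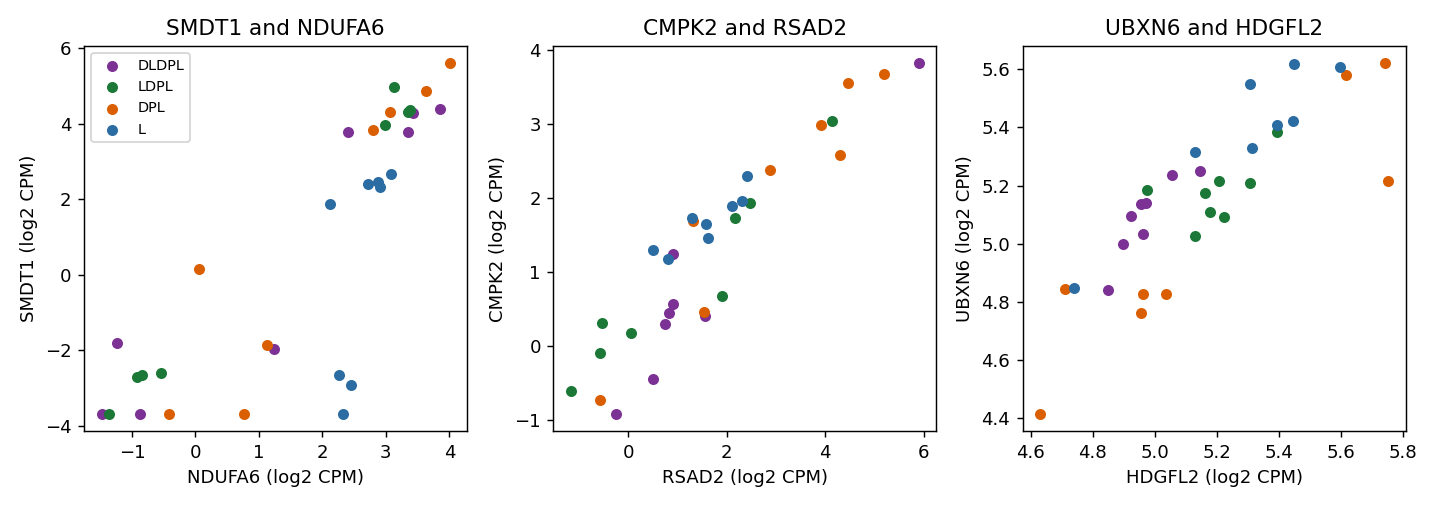
Levels of 3 pairs of neighbouring genes in 32 libraries (both axes log2 CPM, colours mark breed groups). SMDT1 leaves a gap between 1.04 and 3.59 CPM, CMPK2 follows RSAD2 over the whole range, and HDGFL2 has both its lowest (24.7 CPM) and its highest value (53.8 CPM) in DPL.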

How the data were processed

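The authors sequenced 1 library per pig. Per the labels' protocols, libraries were made with the NEBNext Ultra kit, which does not mark the strand, so overlapping genes cannot be told apart. Bowtie 0.12.2, Cufflinks and mm8, a mouse build, are listed per the submitters' processing notes, while the identifiers are pig Ensembl genes. Since a pig build was not given in the sources used here, no coordinates are printed. The deposited counts are uniquely mapped reads per gene, and they add up to the total per the file headers in 32 of 32 libraries. The deposited RPKM values equal those counts scaled by gene length and library size. The deposited coverage signal is the percent of a gene covered.

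Counts were scaled with edgeR 4.0.16 (TMM) to log2 CPM with a prior count of 2, and genes with a mean CPM of at least 1 were kept (10819, of which 7573 had a symbol). Since the question is spread, the main test was limma 3.58.1 on absolute deviations from the group mean, with Benjamini-Hochberg adjustment over all genes tested, in R 4.3.3. Mean levels were tested with edgeR's quasi-likelihood test. DESeq2 1.42.0 served as an alternative. On simulated data the tests of spread missed differences in SD larger than the median ratio between DPL and L. A gene that was not called is thus not shown to have equal spread. With still larger differences, deviations from the group mean gave more false calls than the nominal share. List scores are means of group-centred log2 CPM over at least 4 members, leaving out the 7 symbols found in more than 1 list, with 100000 permutations within groups. Named genes have a symbol and a mean CPM of at least 5: those of largest and smallest spread, of smallest p and of largest loading, plus up to 3 of each list at a mean CPM of at least 1. Members, lists and named genes were chosen with earlier results of these data known. Alternatives covered scaling, prior count, transformation, filter, covariates, the definition of deviation and leaving out libraries. P-values measure the spread between the libraries as labelled. A result for 1 gene is not reported here.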

Additional observations from a re-analysis of the deposited data

Results flagged for a closer look

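In 43 of 348 groups of 8 libraries (12.4%, over 87 measures), the lowest or highest library stood apart from the other 7: the gap to its neighbour, as a share of the group's range, was above Dixon's critical value at the 95% level. Chance flags about 1 in 20 groups, and the measures overlap, so the flags are not independent. Many of the measures were genes named for their spread in these same data, so the share flagged cannot be set against that rate. The values below are that share.

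L replicate 2 stood apart in 13 measures. It was highest for the mean absolute deviation (0.626), immature fibre genes (0.556), macrophage markers (0.618), ACTC1 (0.629) and the matrix protein THBS1 (0.615). It was lowest for the first component (0.538), fast fibre genes (0.756), glycolysis and glycogen (0.559), ion channels (0.547), HBB (0.688), the haem enzyme ALAS2 (0.538), MYL3 (0.638) and UBXN6 (0.608).

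DLDPL replicate 32 was highest for interferon-stimulated genes (0.848), RSAD2 (0.707), CMPK2 (0.543), MX1 (0.784) and OAS2 (0.658), and lowest for endothelium (0.58), the lactonase PON3 (0.54) and the ribosomal protein RPS21 (0.82). DLDPL replicate 18 was lowest for immediate early genes (0.615), heat shock and chaperones (0.677), hypoxia genes (0.546), fatty acid oxidation (0.59), EGR1 (0.625) and ADAMTS4 (0.578). DLDPL replicate 28 was highest for metallothionein and glucocorticoid genes (0.594) and CHERP (0.663), and lowest for cell cycle genes (0.584) and CIT (0.642). SCD was highest in DLDPL replicate 29 (0.634).

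In LDPL, replicate 4 was lowest for fast fibre genes (0.579) and highest for SPP1 (0.628) and ADAMTS4 (0.585), replicate 10 was lowest for PON3 (0.561) and highest for RPS21 (0.578), and replicate 14 was highest for CIT (0.683). In DPL, replicate 16 was highest for macrophage markers (0.564), replicate 11 lowest for ion channels (0.552) and PFKFB3 (0.535), and replicate 19 highest for RPS21 (0.709). L replicate 8 was lowest for smooth muscle and pericytes (0.722). What set these libraries apart was not tested.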

How the results depend on the processing

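DPL had the largest median SD in every setting run, and L the smallest in all but log2(RPKM + 1), where LDPL was smallest. Calls of single genes moved with the settings, and where a value moved the cause was not tested, except that fewer libraries or genes enter where they were left out. Depth limits weakly expressed genes, whose spread holds more counting noise. Counts of genes below are those with adjusted p under 0.05 in limma, and deviation means the difference in mean absolute deviation per library.

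Size factors of DESeq2 gave 5 genes for DLDPL over DPL, as did a prior count of 0.5. The variance stabilising transformation gave 5 genes for DLDPL over L and 2 for LDPL over L, with median SDs of 0.228 (DLDPL), 0.227 (LDPL), 0.275 (DPL) and 0.214 (L). With log2(RPKM + 1) there were 2 genes for DLDPL over LDPL, 4 for DLDPL over L, 0 for LDPL over DPL, 2 for LDPL over L and 8 for DPL over L. Median SDs were then 0.261 (DLDPL), 0.224 (LDPL) and 0.280 (DPL), and the deviation for LDPL over L reversed to -0.0157. The filterByExpr filter gave 1 gene for DLDPL over LDPL, 5 for DLDPL over DPL and 4 for LDPL over L, with median SDs of 0.333 (DLDPL) and 0.332 (LDPL). A mean CPM of at least 10 gave 9 genes among the 4 groups, 8 for DLDPL over DPL, 2 for DLDPL over L, 7 for LDPL over DPL and 7 for DPL over L, median SDs of 0.240 (DLDPL), 0.241 (LDPL) and 0.298 (DPL), and 19.4% of variance on the first component.

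With mitochondrial share and coverage taken out there were 5 genes among the 4 groups, 0 for DLDPL over DPL, 8 for LDPL over DPL and 5 for DPL over L. With the first component taken out there were 11, and 4 for LDPL over DPL and 10 for DPL over L. The deviation was then -0.0137 for DLDPL over LDPL, reversed, and 0.0550 for DPL over L, now past the threshold. List pairs numbered 7, and r reversed to -0.064 for matrix with macrophages and 0.19 for fast fibre with matrix. Leaving out L replicate 2, DPL replicate 16 and DPL replicate 23, chosen after seeing the data, gave 30 genes among the 4 groups, 6 for DLDPL over DPL, 3 for LDPL over L and 47 for DPL over L. Deviations were then 0.041 for DLDPL over L, 0.0381 for LDPL over L and 0.0621 for DPL over L, all past the threshold, but -0.0211 for DLDPL over DPL and -0.0240 for LDPL over DPL (adjusted exact permutation p = 0.352 and 0.321), and 9 list pairs were called.

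Deviations from the group median gave 0 genes in each comparison. Log2 squared deviations gave 3 for DLDPL over L, 1 for LDPL over DPL, 2 for LDPL over L and 12 for DPL over L. Without trend and robust settings there were 2 for DLDPL over LDPL, 13 for DLDPL over DPL, 4 for DLDPL over L, 1 for LDPL over DPL and 6 for LDPL over L. The median over genes gave deviations of -0.0406 (DLDPL over DPL), -0.0429 (LDPL over DPL) and 0.0551 (DPL over L), all past the threshold. Median absolute deviations were 0.263 (DLDPL), 0.261 (LDPL) and 0.315 (DPL). Dispersions of DESeq2 gave coefficients of variation of 0.189 (DLDPL), 0.188 (LDPL), 0.233 (DPL) and 0.176 (L).

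LDPL and L share 5 label numbers. Deviations of same-numbered libraries correlated at -0.079 to 0.125 and 2 of 5 matched best with their own number. No pairing by number showed, though 5 pairs are too few to settle it. Label numbers do not repeat among DLDPL, LDPL and DPL, while L has a number series and a title form of its own. The labels do not say whether L was handled apart, and such handling could not be told from breed. With the number as a replicate block, 0 genes were called for LDPL over L, against 1.

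Leaving out 1 library at a time gave 11 to 38 genes among the 4 groups, 0 to 2 for DLDPL over LDPL, 0 to 20 for DLDPL over DPL, 1 to 2 for DLDPL over L, 0 to 27 for LDPL over DPL, 1 to 4 for LDPL over L and 5 to 75 for DPL over L. Deviations ran from -0.00526 to 0.0109 (DLDPL over LDPL), -0.0553 to -0.0342 (DLDPL over DPL), 0.013 to 0.0406 (DLDPL over L), -0.0583 to -0.0373 (LDPL over DPL), 0.01003 to 0.0377 (LDPL over L) and 0.0553 to 0.0842 (DPL over L). The coefficient of variation in L ran from 0.213 to 0.257. Leaving out a whole group left 3 to 15 list pairs.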
